A study of Mus musculus with 2 samples.

Results

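The TBX5 peaks of adult mouse heart ventricle that fall in 2 genomic windows, one around Fhl2 and one around Gpr22, are described here against the whole list of peaks. A peak was taken as a site of a window when its summit, the position of its highest signal, lay on chromosome 1 between 43.08 and 43.32 Mb (Fhl2, 240 kb) or on chromosome 12 between 32.25 and 32.55 Mb (Gpr22, 300 kb) of the mouse build mm9. This gave 15 of the 8849 peaks, 10 in the Fhl2 window and 5 in the Gpr22 window. The rule takes peaks by position alone, but the windows were chosen with earlier results of these data known. The position of each gene inside its window was not checked, as an mm9 annotation was not used here, and no site was placed in a promoter, exon or intron or assigned to a gene.

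Chromatin came from cardiac ventricles of wild type C57BL/6 mice aged 15 weeks, fixed with 2% formaldehyde. It was immunoprecipitated with anti-TBX5 (HPA008786, Sigma) or with rb IgG as control, and the DNA was sequenced (ChIP-seq). The design has 2 biological replicates per antibody, and the data used here are 1 merged TBX5 list, so no value below has a spread between replicates and no test between groups was possible. The tissue is whole ventricle, in which cell types cannot be told apart, and a peak list holds no expression values with which to check it against cell type markers.

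TBX5 is a T-box transcription factor that binds DNA at short sequences with the core AGGTGT. It is required for the development of the heart and its conduction system, and the study asks about its role in the adult ventricle. Fhl2 encodes a LIM-domain adaptor protein abundant in heart muscle, where it binds sarcomere proteins and signalling enzymes and acts as a cofactor in the nucleus. Mice without it respond to beta-adrenergic stimulation with more cardiac hypertrophy than controls. Gpr22 encodes an orphan G protein-coupled receptor of heart and brain, and mice without it tolerate pressure overload of the heart less well. In the RefSeq gene order of assembly GRCm38.p6, used here only for names and order, the protein-coding neighbours of Fhl2 are AI597479 and Tgfbrap1 on one side and Nck2 on the other. Gpr22 lies within the span of Cog5, which encodes a subunit of a Golgi tethering complex, and is followed by Hbp1 and Prkar2b.

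The sequences before the starts of the 2 genes are shown because they are the regulatory sequence of both genes at hand. They come from RefSeq on GRCm38.p6, whose coordinates cannot be set against the mm9 positions of the peaks, and whether a peak covers them was not tested. Each is the 250 bases before a start, 5′ to 3′ on the gene's own strand (minus in all 3), with -1 the base next to the start. Fhl2 has 2 annotated starts in the table, at chr1:43196762-43197011 and chr1:43163962-43164211, and Gpr22 has 1, at chr12:31713884-31714133. Capitals mark a GATA motif or a CArG box, the site of serum response factor.
Fhl2 promoter 1: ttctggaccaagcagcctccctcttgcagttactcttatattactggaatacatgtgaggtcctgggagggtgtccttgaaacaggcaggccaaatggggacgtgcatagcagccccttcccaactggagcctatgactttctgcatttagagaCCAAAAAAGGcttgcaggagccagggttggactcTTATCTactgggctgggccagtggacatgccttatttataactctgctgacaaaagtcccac
Fhl2 promoter 2: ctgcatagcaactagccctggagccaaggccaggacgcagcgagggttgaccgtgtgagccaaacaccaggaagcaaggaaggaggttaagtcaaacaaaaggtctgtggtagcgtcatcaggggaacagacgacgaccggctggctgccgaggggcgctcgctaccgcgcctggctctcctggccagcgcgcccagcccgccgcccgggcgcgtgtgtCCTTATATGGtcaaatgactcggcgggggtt
Gpr22 promoter: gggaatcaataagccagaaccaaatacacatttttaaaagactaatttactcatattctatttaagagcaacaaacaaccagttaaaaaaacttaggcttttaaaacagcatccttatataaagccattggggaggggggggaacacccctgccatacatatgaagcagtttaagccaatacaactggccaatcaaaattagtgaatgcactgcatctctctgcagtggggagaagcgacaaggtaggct

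The T-box core AGGTGT was in none of these 3 stretches on either strand, and 11.8% of the 32851 RefSeq promoter stretches of that length hold it. The NKX2-5 motif AAGTG was also in none of the 3, against 40.7% of all stretches. The GATA motif AGATAA was found once, on the reverse strand of Fhl2 promoter 1 at -62 to -57, and 9.99% of all stretches hold it. Both Fhl2 promoters held a CArG box, at -96 to -87 in the first and at -31 to -22 in the second, and 1.47% of all stretches hold one. The CArG box was searched after these sequences had been read, so its share is a description only, and no match overlapped another. The 50 bases after each start held no further match. The 3 stretches differed in base composition. G and C made up 50.4% of the first Fhl2 promoter, 63.6% of the second and 39.6% of the Gpr22 promoter, beside a median of 52.4% over all. The second Fhl2 promoter held 21 CG pairs, and the other two held 1 each.

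Each site is described by 3 values. The first is the number of TBX5 fragments over its summit, with an exact 95% Poisson interval that covers counting error only. The interval makes no allowance for the summit being the highest position of a called peak, which can raise the count. The second is the local control level. For it MACS2 by default takes the largest of several windows around the summit. It is never less than the genome background, here 1.18 fragments per position. The caller's control and settings are not given, so whether this level is the IgG signal is not known. The third is the authors' fold, which is (0.787 times the TBX5 fragments + 1) / (control level + 1). The intervals of folds hold the control level fixed. The medians of the whole list were 32 TBX5 fragments, 3.50 for the control level, 5.52 for the fold and 202 bp for the width.

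The Fhl2 window held 1 of the strongest TBX5 sites of the list, in the middle of a dense group of weaker ones. This site, from 43304428 to 43304911, rested on 157 TBX5 fragments (95% Poisson interval 133 to 184), while the control level was 2.62. Its fold was 34.3 (29.2 to 40.1) and its −log10 q was 149.6. It ranked 15 of 8849 by fold and 11 by score, and no other of the 626 peaks of chromosome 1 had as high a fold. By fragments alone it ranked 56, and 53 of the 55 sites with more fragments stood over a higher control level. Most of that count follows from its rank by fold, since the fold is computed from fragments and control level. The other 9 sites of the window had folds of 3.05 to 9.34, and the fragment interval of the strongest lay above those of all 9. It held 35.8% of the fragments counted over the 10 summits.

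Around this site lay 6 further TBX5 sites, with at most 7.74 kb between neighbouring summits, which made a group of 7 in 20.4 kb, from 43296689 to 43317063. At a stitching distance of 5 kb it divides into parts of 2, 2 and 3 sites. The second strongest of the group, from 43316738 to 43317063, had 70 TBX5 fragments (54.6 to 88.4) over a control level of 5 and a fold of 9.34 (7.32 to 11.8). It lay 12.3 kb from the strongest summit, towards higher coordinates. On both sides of the strongest summit were sites of intermediate height. The site 7.89 kb away towards lower coordinates, from 43296689 to 43296939, had 43 fragments (31.1 to 57.9) over 4 and a fold of 6.96. The site 2.59 kb away towards higher coordinates, from 43307184 to 43307349, had 32 fragments (21.9 to 45.2) over 2.25 and a fold of 8.05. Their fragment intervals overlap each other. The interval of the site of 43 fragments also overlaps that of the second strongest site, and the interval of the site of 32 lies below it.

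The remaining 3 sites of the group were shallow. The site from 43299011 to 43299139 had 16 TBX5 fragments (9.15 to 26.0) over the genome background, which gave a fold of 6.24. The site from 43314895 to 43315070 had 26 fragments (17.0 to 38.1) over a control level of 3, and its fold was 5.36. Its neighbour from 43315145 to 43315477, at a gap of 0.074 kb, had 22 fragments (13.8 to 33.3) over 5 and, at 3.05, the lowest fold of the window. The fragment intervals of these 3 sites overlap, and the order of their folds is the reverse of the order of their control levels.

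The other 3 sites of the Fhl2 window lay apart from the group and were weak. A pair 0.164 kb apart stood 50.9 and 50.5 kb below the strongest summit. Its first site, from 43253728 to 43253977, had 24 TBX5 fragments (15.4 to 35.7) over a control level of 3.75 and a fold of 4.18. Its second, from 43254142 to 43254283, had 20 fragments (12.2 to 30.9) over 2.5 and a fold of 4.78. The first site of the window, from 43188607 to 43188748, stood alone 65.0 kb before the pair, with 28 fragments (18.6 to 40.5) over 5 and a fold of 3.84. All 3 had folds below the list median of 5.52, and their fragment intervals overlap.

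Peaks were grouped across the list at the stitching distance given with the processing, and how few groups were as large as the one in the Fhl2 window depends on it. Of 1300 groups of 2 or more peaks, 15 held 7 or more, of which 10 held more than 7. No other of these 15 held a site of as high a fold, and among the 374 groups of 3 or more 1 other did. At 5 kb the largest part held 3 sites, and 168 of 940 groups were at least as large (17.9%). At 25 kb the group kept its 7 sites, with 36 of 1553 groups as large (2.32%). The window as a whole held 10 sites, and 32 of 10531 windows of 240 kb laid end to end over chromosomes 1 to 19 and X held as many (0.304%). A site of as high a fold was found in 15 of them (0.142%), which restates its rank of 15 by fold, as that site is counted too. The window's count was not set by the exact bounds at the low end, since the next peak in that direction lay 598 kb before its first site. Of the 8821 gaps between neighbouring peaks, 11.2% were as long. The last summit lay only 3.07 kb inside the upper bound, and the next peak followed 143 kb further on. With 50 kb taken off each side, the group of 7 fell outside and 3 sites were left.

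The Gpr22 window had fewer TBX5 sites, but 4 of its 5 were strong. The site of highest fold stood 135 kb from the next peak and the last site 123 kb from the peak before it. The 2 between them were closer, with a gap of 20.8 kb before the second, below the list's median gap of 73.9 kb. The site of highest fold, from 32253463 to 32253841, had 100 TBX5 fragments (81.4 to 122) over a control level of 2. Its fold was 26.6 (21.7 to 32.2), and it ranked 69 of 8849 by fold. The site with the most fragments lay 135 kb further on, from 32388827 to 32389259, with 152 fragments (129 to 178) over a control level of 6. Its fragment interval was higher than that of the first site, with no overlap. Its fold of 17.2 (14.6 to 20.2) was lower, with fold intervals that do not overlap. These fold intervals leave out the error of the control levels, 2 and 6, so the order of the 2 folds was not tested. The site with the most fragments ranked 280 by fold and 96 by score. By score it stood above the first site, which ranked 145. Which of the 2 is called the strongest thus depends on whether fold or score is used.

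The third strong site of the Gpr22 window, from 32533946 to 32534277, had 123 TBX5 fragments (102 to 147) over a control level of 5 and a fold of 16.3 (13.6 to 19.4). Its intervals overlap those of the site at 32388827 for fold and for fragments. The fourth, from 32410445 to 32410671, had 63 fragments (48.4 to 80.6) over 4 and a fold of 10.1 (7.82 to 12.9). Both its values were lower than those of the other 3, and its fragment interval lay below theirs. Its fold interval also lay below theirs, but only with the control levels held fixed. The fifth, from 32389500 to 32389624, lay 0.240 kb after the site with the most fragments and had 11 fragments (5.49 to 19.7) over the genome background. Its fold was 4.44, and its width of 125 bp was the smallest in the list, shared by 355 peaks.

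**Figure D1:**
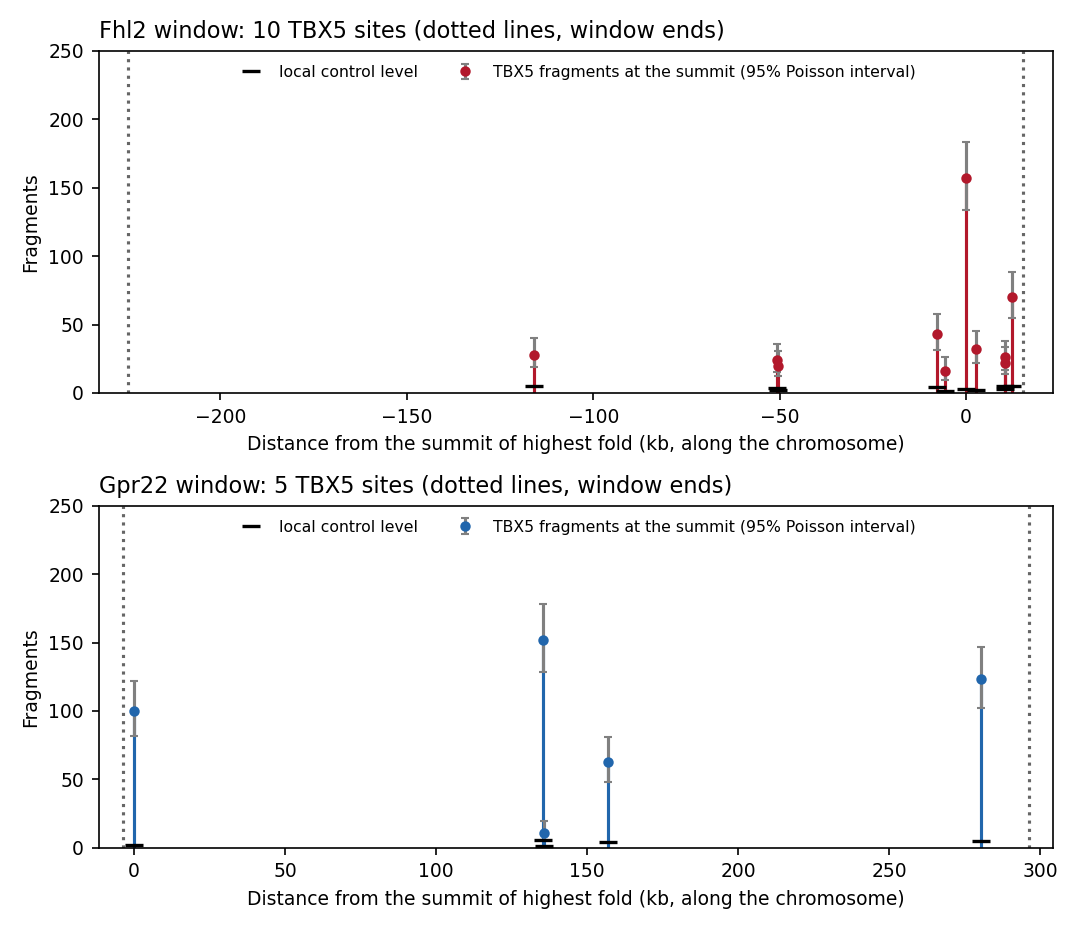
TBX5 fragments at the summit of each site (points, with 95% Poisson intervals) and the local control level beneath it (black dashes), by distance in kb from the summit of highest fold, in the Fhl2 window (top, 10 sites) and the Gpr22 window (bottom, 5 sites); dotted lines are the window ends. In the Fhl2 window a single site of 157 fragments stands in a group of 7 near one end, and in the Gpr22 window 3 sites of 100 to 152 fragments stand 135 kb or more from each other. Fragments are shown without the factor of 0.787 used in the fold, so their ratio to the control level is not the fold.

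Strong sites made up a different part of the sites in each window. Of the 10 sites in the Fhl2 window 1 had a fold of at least 10, and of the 5 in the Gpr22 window 4 did, beside 13.7% of the whole list. The median fold was 5.80 in the Fhl2 window and 16.3 in the Gpr22 window, beside 5.52 in the list. The medians of TBX5 fragments were 27 and 100, beside 32. A score at or above the list median of 81 was found at 4 of 10 and 4 of 5 sites, beside 50.3% of the list. The site at 32410445 and the second strongest site of the Fhl2 window lie just above and just below a fold of 10, and their intervals reach to both sides of it. With sites so few and no replicates, the difference between the windows was not tested.

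Control levels differed little between the windows. They ran from 1.18 to 5 in the Fhl2 window (median 3.38) and from 1.18 to 6 in the Gpr22 window (median 4), beside a list median of 3.50 and a list maximum of 60. The high folds of the Fhl2 site at 43304428 and the Gpr22 site at 32253463 came from many TBX5 fragments over control levels below the list median. The 2 other Gpr22 sites with over 100 fragments stood over levels above it.

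**Figure D2:**
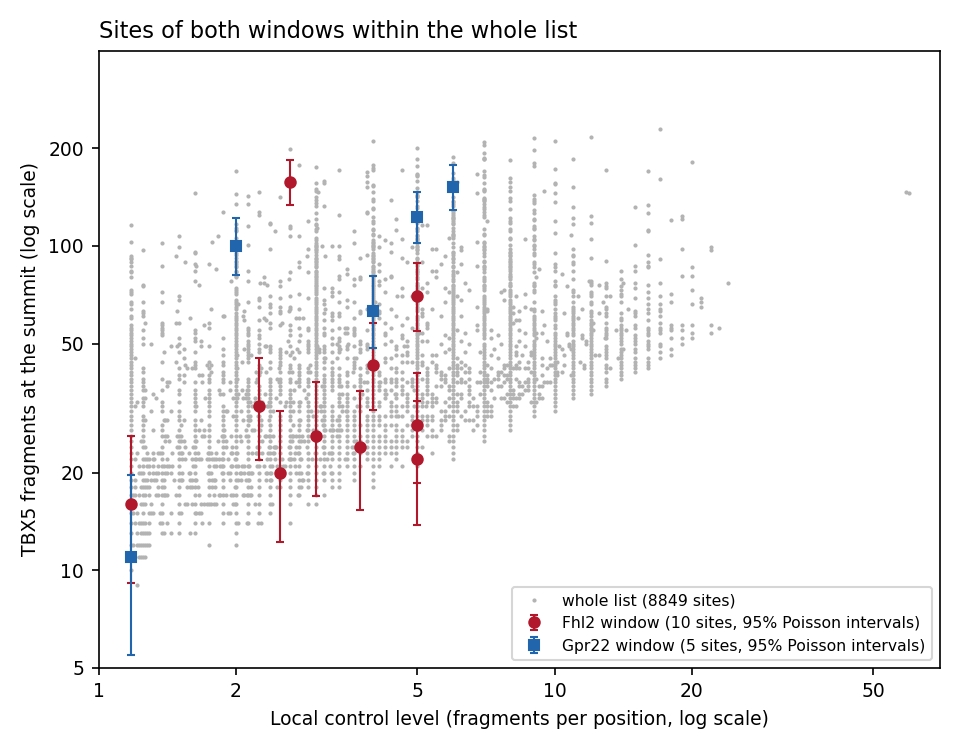
TBX5 fragments at the summit against the local control level, both on log scales, for all 8849 sites of the list (grey) and for the sites of the Fhl2 (circles) and Gpr22 (squares) windows with 95% Poisson intervals. The site of 157 fragments in the Fhl2 window and the sites of 100, 152 and 123 fragments in the Gpr22 window lie in the upper part of the cloud, and most other Fhl2 sites lie in its lower part.

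Sites were also spaced differently. In the Fhl2 window 9 of 10 sites belonged to a group, against 2 of 5 in the Gpr22 window and 36.6% of all peaks placed on an autosome or X. A neighbour within 1 kb was found for 4 of 10 and 2 of 5 sites, beside 10.8% of the list. Such pairs may be parts of 1 enriched stretch, which was not tested. With peaks within 1 kb merged, the windows held 8 and 4 sites. In the Gpr22 window the only such pair was the site of 152 fragments with the site of 11, and the strong sites of that window were 135, 20.8 and 123 kb from the peak before them. The first of them followed a stretch of 385 kb without a peak, and 17.3% of the 8821 gaps between neighbouring peaks were as long.

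The Gpr22 window was also set beside windows of its own length. Of 8424 windows of 300 kb laid end to end, 458 held 5 or more sites (5.44%), and 57.7% held none. A site of at least the highest fold of the Gpr22 window was in 68 of them (0.807%), which follows from its rank of 69 by fold in the list. Windows with 4 or more sites of a fold of 10 or more numbered 3 of 8424 (0.0356%). Among 240 kb windows, 9.66% held at least 1 such site, as the Fhl2 window did. The threshold of 10 was chosen with earlier results of these data known, and these shares depend on it. At a fold of 8 or more, reached by 22.9% of the list, the Fhl2 window held 3 sites and 0.893% of windows of its length held as many. The Gpr22 window held 4, as many as 0.332% of windows of its length did. At a fold of 15 or more, reached by 4.78% of the list, the Fhl2 window held 1 site and the Gpr22 window 3, with shares of 3.75% and 0.0237%. The outer strong sites of the Gpr22 window set its count: their summits lay 3.73 and 15.9 kb inside the bounds, and the central 200 kb held 3 sites. The next peaks outside, from 31868530 to 31868752 and from 32602206 to 32602461, had folds of 7.53 and 6.66, below those of the 4 strong sites. The bounds of the Gpr22 window thus fit closely around these 4 sites, whose summits span 280 kb. The windows set beside it were laid without regard to sites and can divide such a set. The shares for strong sites in the Gpr22 window may therefore overstate how rare the set is.

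**Figure D3:**
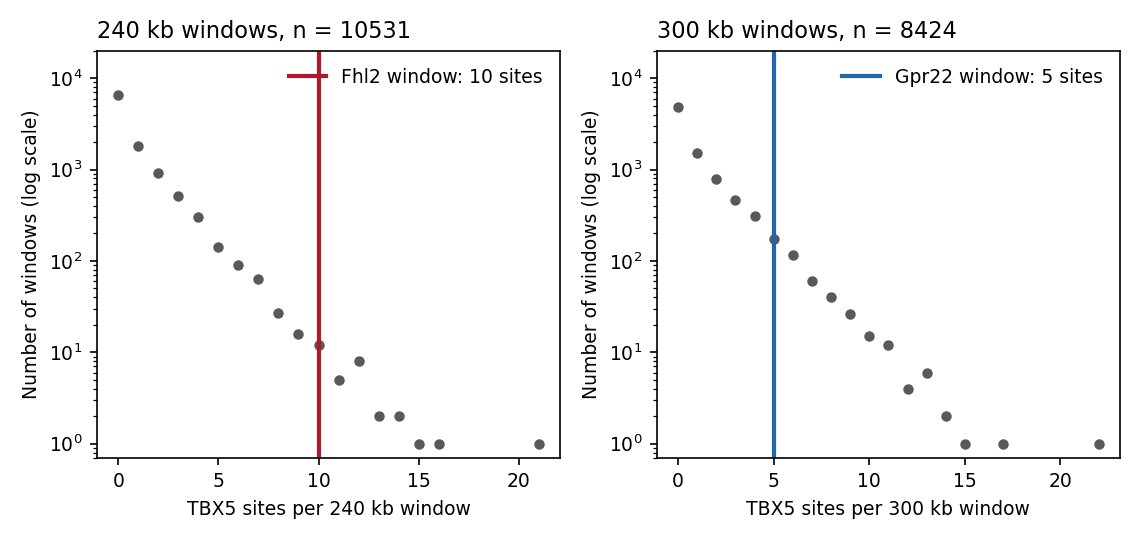
Number of windows (log scale) by the number of TBX5 sites they hold, for 10531 windows of 240 kb (left) and 8424 windows of 300 kb (right) laid end to end over chromosomes 1 to 19 and X; windows with no site are included and vertical lines mark the Fhl2 and Gpr22 windows. Windows with 10 or more sites number 32 on the left, and windows with 5 or more number 458 on the right.

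All 5 sites of the Gpr22 window were narrower than the median peak of like depth (TBX5 fragments within 10%). The site of 123 fragments was 332 bp wide, below the middle of the 118 peaks of like depth, whose quartiles were 366 and 536 bp. The site of 63 fragments was 227 bp wide, against quartiles of 245 and 376 bp. The other 3 sites lay within the quartiles or, at the list's minimum width, on the lower one. In the Fhl2 window 5 sites were narrower, 4 wider and 1 equal to that median. Its strongest site was 484 bp wide beside a median of 525 bp for 71 peaks of like depth. Width also depends on the control level under a site, which was not matched here.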

How the data were processed

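The submitters' processing notes name MACS2 2.1.1.20160309.0, Bowtie2 2.2.6.2, FastQC 0.10.0 and build mm9. Not given in the sources used here are how replicates were merged, which control the caller had and its settings. The deposited file follows the narrowPeak layout of MACS2, and its folds are the authors' ratio of signal over the local background. The −log10 p and −log10 q values are the authors' too, and in 8846 of 8849 peaks the deposited score is 10 times −log10 q without its decimals. No −log10 q is under 1.30. The list gives no library totals. The caller's peak numbers run without a break inside both windows (68 to 77 and 1749 to 1753), while 73 numbers are missing elsewhere.

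TBX5 fragments and control levels were solved from fold and −log10 p, with the upper Poisson tail MACS2 uses. All 8849 peaks gave a whole number of fragments at a scale of 0.787 (tolerance 0.005 on −log10 p). All 15 sites of the windows had a single solution, while 263 peaks of the list had several and the closest was taken. The recovery was tested on simulated data of 1380 and 1450 peaks, where fragments and control levels came back right for 100% of peaks. These data were made with the same formulas, so the test checks the solving and not whether the formulas fit the deposited list. They had no genome background and did not reach the lowest fragment numbers or the highest control levels of the list. Intervals are exact 95% Poisson intervals for counting error only. Without molecular identifiers 2 reads can stem from 1 molecule, so the intervals may be too narrow even for that error.

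Windows of the same length were laid end to end from the first summit of each of chromosomes 1 to 19 and X, with no exclusion of assembly gaps. The stretch before the last summit that was too short for a whole window was left out, with its peaks. Peaks were grouped at gaps of up to 12.5 kb. Motifs were searched on both strands of the 250 bases before each RefSeq start (GRCm38.p6). The rule named Fhl2 and Gpr22, and every site of both windows is given. The windows and thresholds were chosen with earlier results of these data known, so shares of the list are descriptions. Coordinates are on mm9 unless stated, counted from 1. The motif search under the peaks needs an mm9 genome and was not run. Software was scipy 1.17.1, numpy 2.4.6, matplotlib 3.10.9 and pandas 2.3.3 under Python 3.11.15.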

Additional observations from a re-analysis of the deposited data

How the results depend on the processing

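Of 42 alternatives, 26 stayed within the limits (a factor of 1.5 for counts and medians, the 95% Wilson interval for shares, the counting interval for folds) and 16 moved. In the higher-scoring part of the list the Fhl2 window held 4 sites, and 1.84% of windows held as many. The Gpr22 window held 4 sites there, and the share was 2.63%. Windows shortened by 50 kb on each side held 3 sites for each gene. Among windows with at least 1 peak, the shares with as many sites were 0.817% (Fhl2) and 12.8% (Gpr22). With peaks within 1 kb merged, the Gpr22 share was 8.19%. The Gpr22 site of highest score had a fold of 17.2. Its rank by score or by −log10 p put 1.08% of the list at or above it, and the highest fold of the window was reached by 0.536% of the peaks of chromosome 12. The largest Fhl2 group fell from 7 sites to 3 at a stitching distance of 5 kb. With the fold threshold for strong sites at 8, the shares of windows with as many were 0.893% (Fhl2) and 0.332% (Gpr22), and at 15 the Fhl2 share was 3.75%. The alternatives with the higher-scoring or merged list for window shares, and those for strong sites and the largest group, were chosen after seeing the data. The list merges the replicates, so none could be left out or paired. Sites below the q threshold are not in the list, so weak binding in either window was not assessed.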

Other observations

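The weakest site of the Fhl2 window, from 43315145 to 43315477, had its summit on its first base, as 11 of the 8849 peaks of the list did (0.124%). It was 333 bp wide with 22 TBX5 fragments, beside a median of 169 bp and an upper quartile of 209 bp for 1268 peaks of like depth. The peak before it ended 74 bp away. Whether both are 1 enriched stretch was not tested.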
